A study of Mus musculus with 36 samples.

Results

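Histone acetylation was followed at 10 genes of the NRF2 pathway and of glutathione metabolism in the mouse dorsal hippocampus. The members were Nfe2l2 (which encodes NRF2), Keap1, Slc7a11, Gclc, Gclm, Gss, Txnrd1, Srxn1, Nqo1 and Hmox1. They were chosen by name as a pathway and make up 10 of the 21887 protein-coding genes on the assembled chromosomes of the GRCm38 gene table. For each, peaks were collected over the gene body with 10 kb on either side, and the bases inside peaks were counted within 2 kb of the gene ends. The same length of sequence was therefore read at every member, whatever its length. Among all genes, the windows of both ends overlap at short ones, where less sequence was read. A difference between lists was counted when the covered bases, with 100 added to each, differed by at least 1.5-fold, and ratios are given on the log2 scale of those sums.

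The study profiled H3K9ac and H3K27ac by ChIP-seq, with input chromatin, in 4 conditions. All mice were male and were aged to 8 weeks. Ethanol-treated ACSS2 knockdown mice carried the AAV2/9; U6.shACSS2.CMV.EGFP vector in the dorsal hippocampus and received EtOH intraperitoneally at 2 g/kg as a 20% solution in saline. Untreated ACSS2 knockdown mice carried the same vector. Ethanol-treated control mice carried a control vector and received the same EtOH dose. Untreated control mice carried the control vector alone. The hairpin is transcribed from the U6 promoter and EGFP from the CMV promoter, neither of which is restricted to one cell type. The composition of the control vector and the time between injection and tissue collection are not given in the sources used here. The labels name no saline injection for untreated mice, so EtOH and the act of injection cannot be told apart. ACSS2 makes acetyl-CoA, the donor of histone acetylation, from acetate, a product of ethanol metabolism, and the design asks whether ethanol changes histone acetylation in the brain and whether ACSS2 is involved.

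The 36 samples form 12 groups of 3 replicates, 24 of them ChIP libraries and 12 inputs, but the authors deposited 1 peak list for each mark and condition, 8 in all. No replicate error can therefore be given and no test of a difference between conditions was made. Neither the read number of a list nor the way its replicates were joined is known here. The H3K9ac lists covered 24.1 Mb in ethanol-treated knockdown, 21.7 Mb in untreated knockdown, 16.1 Mb in ethanol-treated control and 22.6 Mb in untreated control mice. The H3K27ac lists covered 57.4 Mb in ethanol-treated knockdown, 47.8 Mb in untreated knockdown, 38.1 Mb in ethanol-treated control and 40.1 Mb in untreated control mice. These lengths differ between conditions, so each count of members called is set beside the same count over all protein-coding genes, except under the alternative settings at the end. Peaks say nothing of how far the hairpin lowered Acss2 mRNA. Of 8 excitatory neuron markers, between 6 and 8 had a peak at a gene end in every list, against 1 of 8 genes of other tissues. Of 8 astrocyte markers, between 4 and 7 had one, and the astrocyte water channel gene Aqp4 had no covered base in any list. The tissue was profiled in bulk, so fewer cells of a type and less acetylation per cell cannot be told apart.

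NRF2 is a transcription factor that is kept scarce by KEAP1, a sensor protein that hands it to a CUL3 ubiquitin ligase for degradation. Oxidants and electrophiles modify KEAP1, and NRF2 then accumulates, pairs with a small MAF protein and binds antioxidant response elements near genes for glutathione synthesis, thiol reduction and detoxification. In the brain the pathway is best known from astrocytes, which supply neurons with precursors of glutathione. H3K9ac and H3K27ac are found at active promoters, and H3K27ac also at active enhancers.

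The RefSeq promoter table of GRCm38.p6 held 8 of the 10 members, with 10 annotated starts, and its 250 bases before each start were searched on both strands for the core of the antioxidant response element, TGACNNNGC. This core was present in 3333 of 32817 promoters, or 10.2%. Gclm, Nfe2l2 and the internal start of Txnrd1 at position 82859206 each held 1 copy. The related TGANTCA element, which reads alike on both strands and can overlap the longer core, was added after the sequences had been read. It was present in 6.75% of promoters, and Srxn1 held 2 copies of it, neither within a copy of the longer core. A match is a description of the letters, and its absence says only that they do not occur in this window. The windows with a match are printed 5′ to 3′ on the gene's strand, with the matched letters in capitals, together with that of Nqo1, which held neither and at which the H3K9ac lists differed most.
Gclm, chr3:122245307-122245556, plus strand: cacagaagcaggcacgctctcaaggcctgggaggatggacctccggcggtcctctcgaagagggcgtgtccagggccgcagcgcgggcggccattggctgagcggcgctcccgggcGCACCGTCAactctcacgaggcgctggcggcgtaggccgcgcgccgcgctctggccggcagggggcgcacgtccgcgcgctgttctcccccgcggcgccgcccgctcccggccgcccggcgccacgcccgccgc
Txnrd1, chr10:82858956-82859205, plus strand: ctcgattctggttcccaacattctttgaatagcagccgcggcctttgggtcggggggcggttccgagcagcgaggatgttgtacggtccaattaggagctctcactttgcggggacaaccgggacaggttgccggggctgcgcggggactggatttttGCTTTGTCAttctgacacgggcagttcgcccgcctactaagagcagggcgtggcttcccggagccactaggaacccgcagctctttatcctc
Nfe2l2, chr2:75704664-75704913, minus strand: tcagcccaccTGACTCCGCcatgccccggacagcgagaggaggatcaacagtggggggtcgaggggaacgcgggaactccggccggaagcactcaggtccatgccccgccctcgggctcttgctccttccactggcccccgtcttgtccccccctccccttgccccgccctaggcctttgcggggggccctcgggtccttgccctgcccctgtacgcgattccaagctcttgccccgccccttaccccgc
Srxn1, chr2:152105274-152105523, plus strand: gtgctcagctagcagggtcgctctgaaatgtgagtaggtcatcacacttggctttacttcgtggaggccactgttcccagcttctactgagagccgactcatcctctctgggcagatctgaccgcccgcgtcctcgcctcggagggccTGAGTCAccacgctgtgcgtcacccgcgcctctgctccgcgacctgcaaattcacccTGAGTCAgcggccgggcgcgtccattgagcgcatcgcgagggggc
Nqo1, chr8:107403206-107403455, minus strand: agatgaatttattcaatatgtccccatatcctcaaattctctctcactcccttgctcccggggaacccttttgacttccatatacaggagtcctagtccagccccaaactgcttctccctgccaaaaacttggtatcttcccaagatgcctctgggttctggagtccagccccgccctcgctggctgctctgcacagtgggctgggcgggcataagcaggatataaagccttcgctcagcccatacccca

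These windows differed in how far peaks covered them. The Srxn1 window lay wholly inside H3K27ac peaks in all 4 conditions, and wholly inside H3K9ac peaks in 3 of them, with 134 of 250 bases covered in untreated knockdown mice. At Nqo1, H3K27ac peaks covered 250 bases of the window in ethanol-treated knockdown, 159 in untreated knockdown, 250 in ethanol-treated control and 134 in untreated control mice. H3K9ac peaks covered 227 of the same bases in ethanol-treated knockdown and 63 in untreated knockdown mice, and none in either group of control mice. The Gclm window was almost bare, with at most 53 covered bases in any list, and its matched letters lay outside the peaks of all 8 lists.

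Across the 10 members, 8 had an H3K9ac peak within 1 kb of a gene end in ethanol-treated knockdown, 8 in untreated knockdown, 7 in ethanol-treated control and 8 in untreated control mice. The shares of all protein-coding genes with such a peak were 58.8% in ethanol-treated knockdown, 57.5% in untreated knockdown, 55.1% in ethanol-treated control and 58.1% in untreated control mice. For H3K27ac, the count was 9 members in ethanol-treated knockdown mice and 8 in each of the other conditions, against 64.1% of all genes in ethanol-treated knockdown, 62.6% in untreated knockdown, 61.4% in ethanol-treated control and 61.2% in untreated control mice. The members without an H3K9ac peak within 1 kb of an end in any list were Slc7a11 and Txnrd1, each of which has an annotated start inside the gene span.

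**Figure D1:**
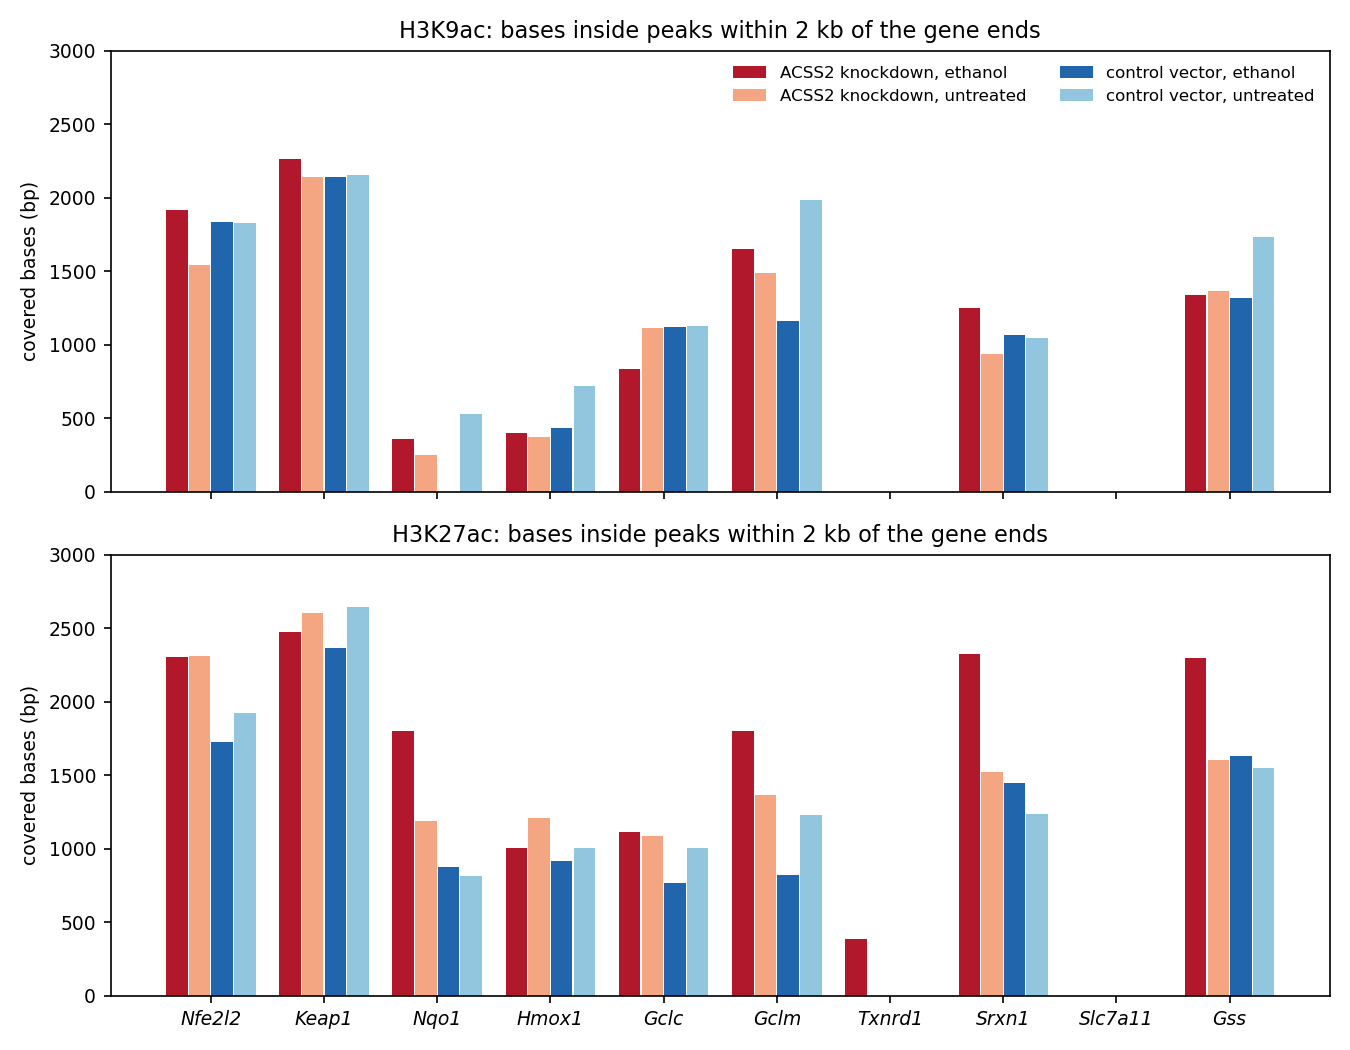
Bases inside H3K9ac (upper) and H3K27ac (lower) peaks within 2 kb of the gene ends, in bp, for the 10 members. Each bar is 1 deposited list (dark red, ethanol-treated knockdown, light red, untreated knockdown, dark blue, ethanol-treated control, light blue, untreated control), with no replicate error. Keap1 has the most covered H3K9ac bases in every list, Nqo1 has none in ethanol-treated control mice, and Slc7a11 has no bar because no peak lies near its ends.

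Nfe2l2 (chr2:75675513-75704663, minus strand) had 1 wide site over its start, shared by every list. Within 2 kb of its ends, H3K9ac covered 1918 bp in ethanol-treated knockdown, 1542 bp in untreated knockdown, 1835 bp in ethanol-treated control and 1829 bp in untreated control mice. H3K27ac covered 2302 bp in ethanol-treated knockdown, 2307 bp in untreated knockdown, 1724 bp in ethanol-treated control and 1925 bp in untreated control mice. All of these values were above those of at least 76.5% of protein-coding genes in the same list, and none differed by 1.5-fold between conditions. Inside the gene, 4 further sites carried H3K27ac and no H3K9ac. The site at chr2:75682649-75683522 held 823 bp in ethanol-treated knockdown, 412 bp in untreated knockdown, 271 bp in ethanol-treated control and 513 bp in untreated control mice. A pair of sites beside it, chr2:75680720-75681383 and chr2:75683985-75684178, appeared in both knockdown lists and in neither control list, with 311 and 139 bp in ethanol-treated knockdown and 517 and 194 bp in untreated knockdown mice. Their strongest peaks stood at percentiles 19.1 and 0.574 of the list in ethanol-treated knockdown and 50.5 and 10.7 in untreated knockdown mice. The knockdown H3K27ac lists were also the longest, and the share of sites over the genome with this pattern was not counted.

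Keap1 (chr9:21229730-21239332, minus strand) was the steadiest member with peaks at its ends. H3K9ac covered 2265 bp near its ends in ethanol-treated knockdown, 2142 bp in untreated knockdown, 2143 bp in ethanol-treated control and 2153 bp in untreated control mice. H3K27ac covered 2475 bp in ethanol-treated knockdown, 2602 bp in untreated knockdown, 2368 bp in ethanol-treated control and 2641 bp in untreated control mice. Its widest site, chr9:21236865-21239934, ran over the start and into the gene. Its strongest peak stood at percentile 94.0 or above of the authors' scores in each H3K27ac list and at 95.2 or above in each H3K9ac list. A site at chr9:21220730-21221353, beyond the 3′ end, was also present in all 8 lists. Its H3K9ac coverage was 215 bp in ethanol-treated knockdown, 323 bp in untreated knockdown, 362 bp in ethanol-treated control and 491 bp in untreated control mice, while its H3K27ac coverage was 529 bp in ethanol-treated knockdown, 604 bp in untreated knockdown, 500 bp in ethanol-treated control and 567 bp in untreated control mice. The broad sites on the other side of Keap1 lie in and at the start of S1pr5, a sphingosine-1-phosphate receptor gene whose body begins 3585 bp away.

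Slc7a11 encodes the cystine-importing subunit of the cystine-glutamate exchanger, and its table span (chr3:50364936-50499087, minus strand) had no covered base within 2 kb of either end in any list. The promoter table places its start at position 50443613, well inside that span. There, the site chr3:50443170-50443665 carried H3K27ac over 327 bp in ethanol-treated knockdown, 443 bp in untreated knockdown, 354 bp in ethanol-treated control and 223 bp in untreated control mice, and no H3K9ac in any list. In ethanol-treated knockdown mice, 1 further H3K27ac peak of 229 bp lay beside it. The strongest peak at this start stood at percentile 64.3 of its list or below, against 86.1 or above for the H3K27ac peaks of Gclc, Gclm and Gss. That of Nqo1 stood between percentiles 57.8 and 86.2. In untreated knockdown mice Nqo1, at 57.8, was below Slc7a11, at 64.3. Another site, chr3:50381742-50382359, nearer the 3′ end, carried both marks. Its H3K9ac peaks covered 410 bp in ethanol-treated knockdown, 604 bp in untreated knockdown and 292 bp in ethanol-treated control mice and were not listed in untreated control mice, and its H3K27ac peaks covered 585 bp in ethanol-treated knockdown, 206 bp in untreated knockdown, 542 bp in ethanol-treated control and 174 bp in untreated control mice.

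Gclc, the catalytic subunit of glutamate-cysteine ligase, catalyses the first and rate-limiting step of glutathione synthesis. At the gene (chr9:77754535-77794489) peaks lay at its lower-coordinate end and in a block before it. The end site, chr9:77754530-77755754, held 833 bp of H3K9ac in ethanol-treated knockdown, 1113 bp in untreated knockdown, 1118 bp in ethanol-treated control and 1128 bp in untreated control mice, and 1114 bp of H3K27ac in ethanol-treated knockdown, 1084 bp in untreated knockdown, 764 bp in ethanol-treated control and 1006 bp in untreated control mice. The outer block, chr9:77749804-77751577, held more covered bases than the end site in every list, with 1230 bp of H3K9ac in ethanol-treated knockdown, 1395 bp in untreated knockdown, 1486 bp in ethanol-treated control and 1350 bp in untreated control mice. Its H3K27ac coverage was nearly constant at 1584 bp in ethanol-treated knockdown, 1601 bp in untreated knockdown, 1566 bp in ethanol-treated control and 1657 bp in untreated control mice. No start in the promoter table lay within 1 kb of this block. Inside Gclc, the site chr9:77771661-77772044 carried H3K27ac alone, over 220 bp in ethanol-treated knockdown, 230 bp in untreated knockdown and 288 bp in ethanol-treated control mice, and was not listed in untreated control mice.

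Gclm encodes the modifier subunit of the same ligase. Near its ends (chr3:122245487-122267215, plus strand) H3K9ac covered 1649 bp in ethanol-treated knockdown, 1491 bp in untreated knockdown, 1165 bp in ethanol-treated control and 1983 bp in untreated control mice. H3K27ac covered 1797 bp in ethanol-treated knockdown, 1367 bp in untreated knockdown, 820 bp in ethanol-treated control and 1226 bp in untreated control mice. Ethanol-treated control mice were the lowest group for both marks. There the H3K27ac coverage was 1 peak in chr3:122245550-122246949. The smaller site before it, chr3:122244944-122245359, was missing in that list and held 187 bp of H3K27ac in ethanol-treated knockdown, 343 bp in untreated knockdown and 230 bp in untreated control mice. The lncRNA Gm46822 overlaps the 5′ end of Gclm and also has an annotated start there, so these sites belong to both genes.

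Gss encodes glutathione synthetase, which completes the tripeptide. At the gene (chr2:155563181-155592810, minus strand) H3K9ac covered 1340 bp in ethanol-treated knockdown, 1369 bp in untreated knockdown, 1319 bp in ethanol-treated control and 1732 bp in untreated control mice. H3K27ac covered 2294 bp in ethanol-treated knockdown, 1604 bp in untreated knockdown, 1633 bp in ethanol-treated control and 1546 bp in untreated control mice. Part of the coverage in ethanol-treated knockdown mice lay at the other end of the gene, where the site chr2:155561845-155562270 held 426 bp in that list and none in the other 7. Acss2, the gene the hairpin targets, ends 438 bp from Gss, and this peak lies within the Acss2 span of the gene table. The peak was weak, at percentile 9.2 of its list. At the Gss start itself, chr2:155591593-155593464, H3K27ac covered 1868 bp in ethanol-treated knockdown, 1462 bp in untreated knockdown, 1490 bp in ethanol-treated control and 1418 bp in untreated control mice.

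Txnrd1 encodes the cytosolic thioredoxin reductase, which keeps thioredoxin reduced. The gene (chr10:82833951-82897724, plus strand) has 3 annotated starts, and the outermost had no covered base within 1 kb in any list. The peaks lay instead at the internal starts, 82859206 and 82860341. Within 1 kb of the earlier of these, whose promoter is printed above, H3K9ac covered 1356 bp in ethanol-treated knockdown, 1059 bp in untreated knockdown, 1140 bp in ethanol-treated control and 1115 bp in untreated control mice, and H3K27ac covered 1317 bp in ethanol-treated knockdown, 1126 bp in untreated knockdown, 902 bp in ethanol-treated control and 867 bp in untreated control mice. Within 1 kb of the later one, H3K9ac covered 1685 bp in ethanol-treated knockdown, 1384 bp in untreated knockdown, 1372 bp in ethanol-treated control and 1744 bp in untreated control mice, and H3K27ac covered 1578 bp in ethanol-treated knockdown, 1493 bp in untreated knockdown, 1255 bp in ethanol-treated control and 1386 bp in untreated control mice. These windows overlap, and the first is shared with the lncRNA Gm38560. Both internal starts were thus acetylated in all conditions, and the ends of the table's span were not, apart from 388 bp of H3K27ac near the 3′ end in ethanol-treated knockdown mice.

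That 3′ signal belonged to a run of small H3K27ac peaks towards the 3′ end of Txnrd1. The site chr10:82893611-82894137 held 287 bp in ethanol-treated knockdown, 428 bp in untreated knockdown and 280 bp in ethanol-treated control mice, and chr10:82894630-82894953 held 222 bp in ethanol-treated knockdown, 269 bp in untreated knockdown and 284 bp in ethanol-treated control mice. Neither was listed in untreated control mice. The next site, chr10:82895405-82895613, was listed in both knockdown conditions and in neither control condition, with 209 bp in ethanol-treated knockdown and 159 bp in untreated knockdown mice. Its peaks stood at percentiles 30.5 and 10.7 of those lists, the longest of the mark, and the share of sites over the genome with this pattern was not counted. Counted over the gene with 10 kb on each side, Txnrd1 had 12 H3K27ac peaks in ethanol-treated knockdown, 12 in untreated knockdown, 7 in ethanol-treated control and 7 in untreated control mice.

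Srxn1 encodes sulfiredoxin, which repairs overoxidised peroxiredoxins. At the gene (chr2:152105524-152111376, plus strand) H3K9ac covered 1249 bp in ethanol-treated knockdown, 940 bp in untreated knockdown, 1064 bp in ethanol-treated control and 1049 bp in untreated control mice. H3K27ac covered 2321 bp in ethanol-treated knockdown, 1523 bp in untreated knockdown, 1445 bp in ethanol-treated control and 1237 bp in untreated control mice. H3K27ac covered more bases than H3K9ac in each condition, and ethanol-treated knockdown mice stood highest in both marks. Upstream, the site chr2:152101461-152102765 carried H3K27ac over 1305 bp in ethanol-treated knockdown, 1055 bp in untreated knockdown, 502 bp in ethanol-treated control and 773 bp in untreated control mice, with no H3K9ac in any list. It lies over the lncRNA Gm31475, 2172 bp from Srxn1 at its nearest. Beyond the 3′ end, the site chr2:152114145-152114994 held 511 bp of H3K27ac in ethanol-treated knockdown, 850 bp in untreated knockdown, 672 bp in ethanol-treated control and 162 bp in untreated control mice.

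Nqo1 encodes the quinone reductase that is the textbook NRF2 target, and its H3K9ac values varied more than those of any other member on the log2 scale with 100 bases added, though not in bp. At the gene (chr8:107388225-107403205, minus strand) H3K9ac covered 360 bp in ethanol-treated knockdown, 253 bp in untreated knockdown, 0 bp in ethanol-treated control and 526 bp in untreated control mice. No H3K9ac peak was listed anywhere within 10 kb of Nqo1 in ethanol-treated control mice. In untreated control mice, 381 of the bases lay at the start and 145 in a peak past the 3′ end, chr8:107386315-107386459. These H3K9ac peaks were weak, with the strongest at percentile 50.3 of its list in ethanol-treated knockdown, 5.29 in untreated knockdown and 29.9 in untreated control mice.

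H3K27ac at Nqo1 covered 1803 bp near the ends in ethanol-treated knockdown, 1187 bp in untreated knockdown, 875 bp in ethanol-treated control and 814 bp in untreated control mice. The start site chr8:107402775-107403713 was held by all 4 lists, with 879 bp in ethanol-treated knockdown, 772 bp in untreated knockdown, 875 bp in ethanol-treated control and 474 bp in untreated control mice. Ethanol-treated control mice thus had a start peak nearly as wide as that of ethanol-treated knockdown mice and no other H3K27ac peak within 10 kb of the gene. Ethanol-treated knockdown mice had 11 such peaks, untreated knockdown mice 6 and untreated control mice 6. Inside the gene, the site chr8:107400848-107401377 held 449 bp in ethanol-treated knockdown, 327 bp in untreated knockdown and 276 bp in untreated control mice, and chr8:107399702-107400194 held 493 bp in ethanol-treated knockdown and 180 bp in untreated knockdown mice alone. The peaks of the latter site stood at percentiles 55.7 and 10.7 of those lists, the longest of the mark.

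**Figure D2:**
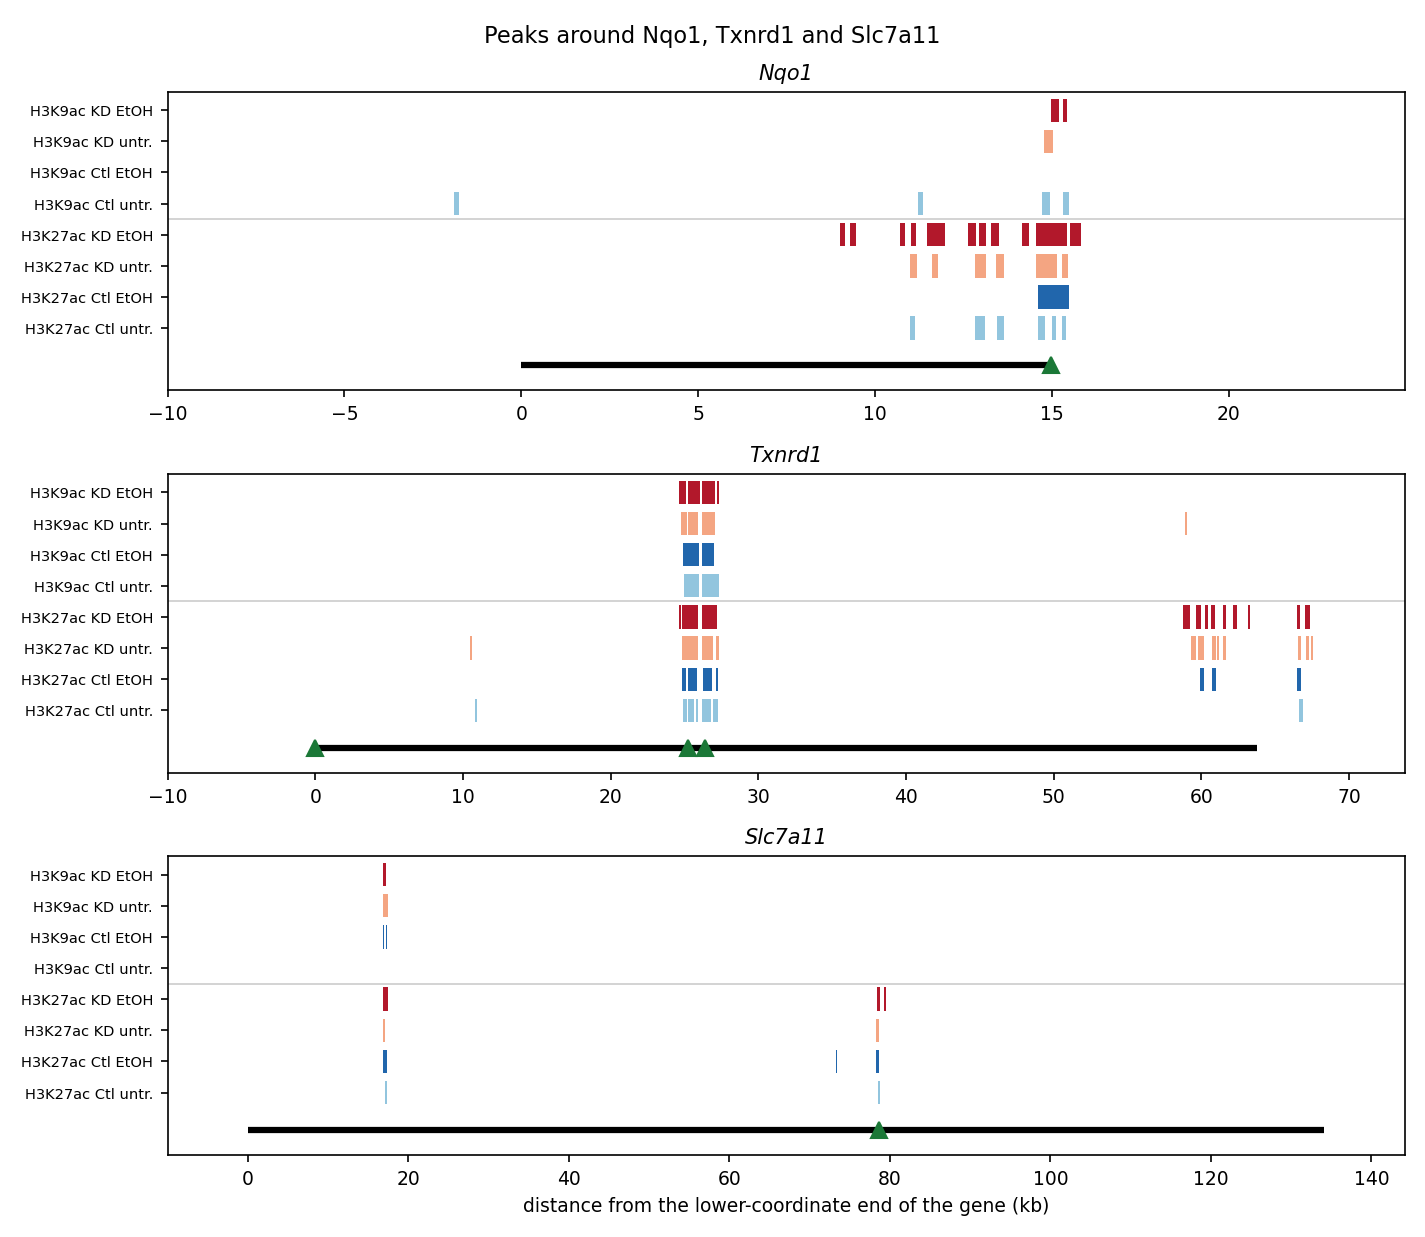
Peaks around Nqo1, Txnrd1 and Slc7a11, with distance from the lower-coordinate end of the gene in kb on the x axis and 1 row for each deposited list (KD, ACSS2 knockdown, Ctl, control vector, untr., untreated). Coloured bars are peaks, the black line is the gene and green triangles are annotated starts. The H3K9ac row of ethanol-treated control mice is empty at Nqo1, and the Txnrd1 peaks sit at the internal starts.

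Hmox1 encodes haem oxygenase 1, which breaks down haem and is induced by oxidative stress. Near its ends (chr8:75093618-75100593) H3K9ac covered 398 bp in ethanol-treated knockdown, 372 bp in untreated knockdown, 431 bp in ethanol-treated control and 717 bp in untreated control mice. H3K27ac covered 1004 bp in ethanol-treated knockdown, 1205 bp in untreated knockdown, 918 bp in ethanol-treated control and 1002 bp in untreated control mice. All of this coverage lay at the lower-coordinate end, in chr8:75092768-75094145, where untreated control mice had a further H3K9ac peak that the other conditions lacked. The mouse gene is known for a pair of distal upstream enhancers that carry antioxidant response elements. A pair of outlying H3K27ac sites was listed in all 4 conditions on that side of the gene. The nearer, chr8:75088734-75089723, held 379 bp in ethanol-treated knockdown, 330 bp in untreated knockdown, 372 bp in ethanol-treated control and 791 bp in untreated control mice. The farther, chr8:75083761-75084022, held 211 bp in ethanol-treated knockdown, 209 bp in untreated knockdown, 211 bp in ethanol-treated control and 135 bp in untreated control mice. H3K9ac was listed at both in ethanol-treated knockdown mice alone, over 133 bp at the nearer and 147 bp at the farther. These peaks stood at percentiles 1.48 and 22.0 of that list, the longest of the mark. Whether these sites are the known enhancers was not tested.

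**Figure D3:**
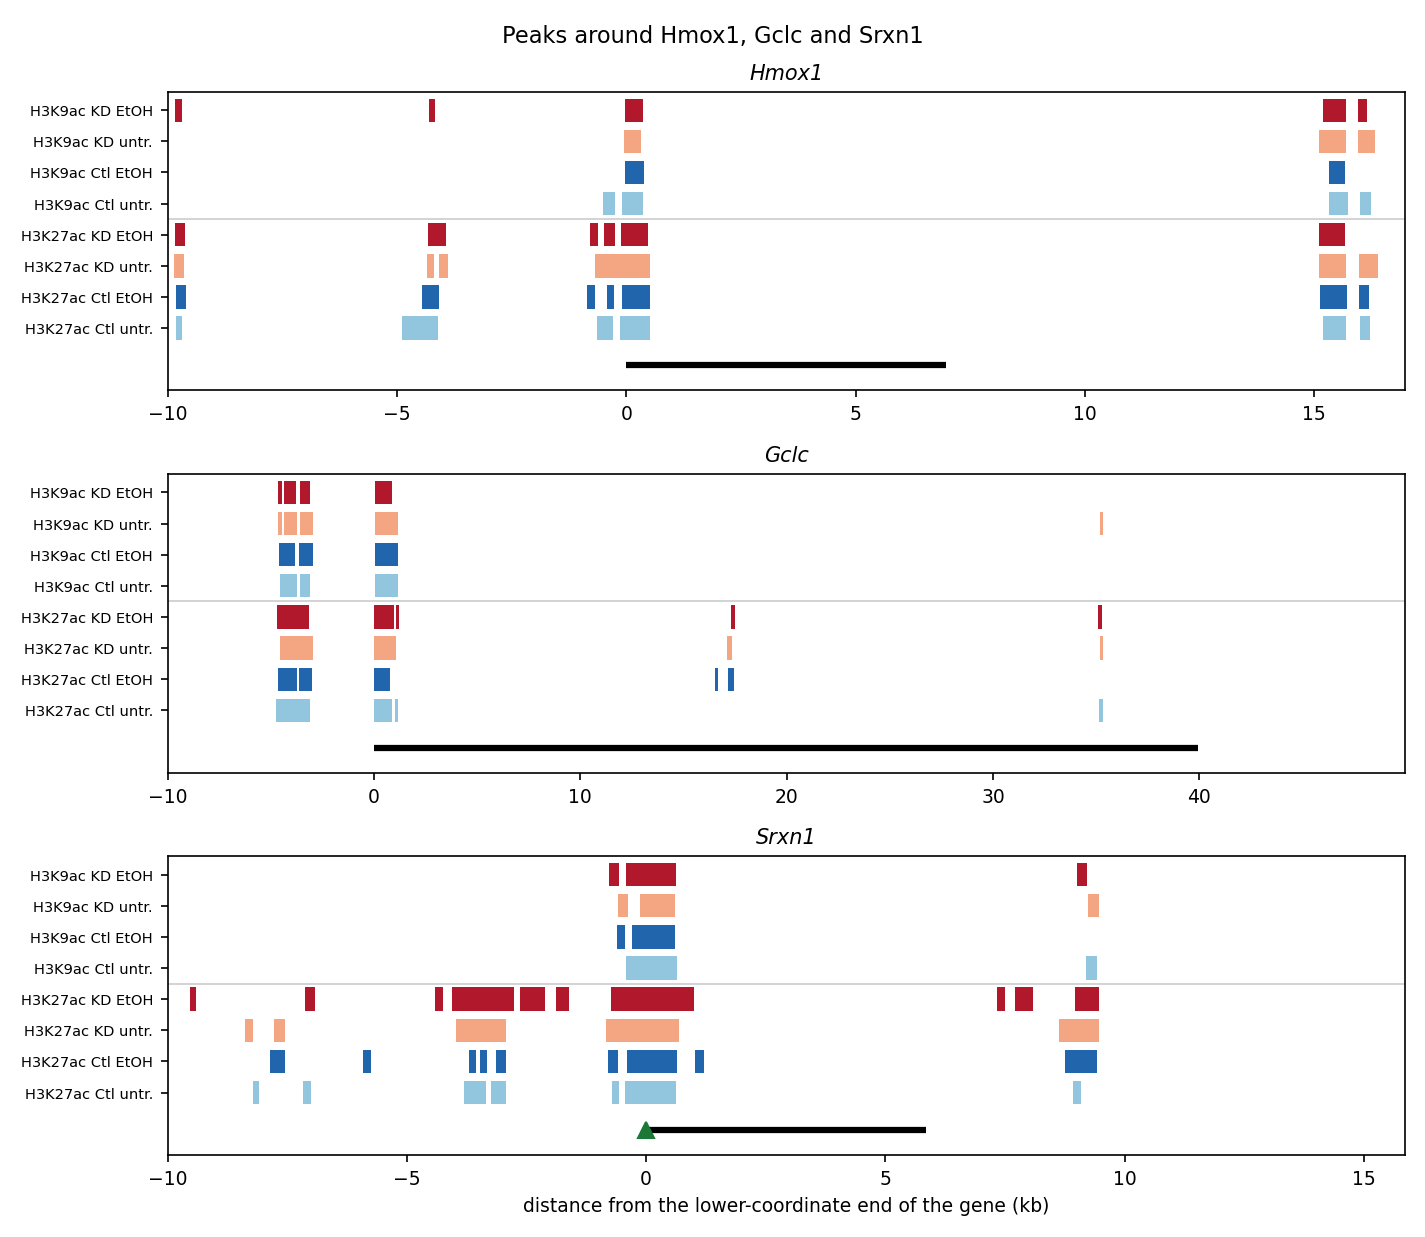
Peaks around Hmox1, Gclc and Srxn1, drawn as bars against distance from the lower-coordinate end of the gene in kb, with 1 row for each deposited list (KD, ACSS2 knockdown, Ctl, control vector, untr., untreated), the gene as a black line and the annotated start as a green triangle where the promoter table has one. All 4 H3K27ac rows hold a peak at each of the outlying Hmox1 sites, both marks fill the block before Gclc in all 8 rows, and the block before Srxn1 holds H3K27ac alone.

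Merging the peaks of the 8 lists gave 87 sites around the 10 members. Of these, 15 were present in all 8 lists, with a median width of 1431 bp, and 9 of the 15 lay at an end or annotated start of the member itself. Another 3 lay at the starts of the neighbouring genes S1pr5, Mcm5 and Dnttip2. The rest were the outer block of Gclc, the site beyond the 3′ end of Keap1 and a site inside S1pr5. A total of 40 sites were found in 1 list alone, with a median width of 151 bp, and 17 of the 40 were H3K27ac sites of ethanol-treated knockdown mice, which also had the longest list. H3K27ac was missing from 5 sites and H3K9ac from 54. Sites were not merged over the whole genome, so none of these site counts has a genome-wide share beside it. The H3K27ac lists held between 86306 and 119486 peaks and the H3K9ac lists between 31122 and 42267.

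Ethanol in control mice went with less H3K9ac coverage at 3 members, Nqo1, Hmox1 and Gclm. Slc7a11 and Txnrd1 had no covered H3K9ac base near their ends in any list and could not be counted. Of the 8 other members, 3 were lower by at least 1.5-fold in ethanol-treated than in untreated control mice and 0 were higher, against 26.6% of all tested genes lower and 1.56% higher. Nqo1 had 0 bp in ethanol-treated and 526 bp in untreated control mice. It lost its end peak, as did 6.14% of genes with such a peak in either list. Hmox1 had 431 bp in ethanol-treated and 717 bp in untreated control mice, a log2 ratio of -0.62. Gclm had 1165 bp in ethanol-treated and 1983 bp in untreated control mice, a log2 ratio of -0.72. The other 5 were within the fold, and Keap1, Nfe2l2, Gclc and Srxn1 differed by at most 15 bp. The median log2 ratio of the tested members was -0.19, against -0.32 over all genes, which is further below 0. Excitatory neuron markers were lower at 5 of 8, with 8183 bp summed in ethanol-treated and 14364 bp in untreated control mice and Neurod6 at 0 in ethanol-treated ones. Astrocyte markers were lower at 3 of 7, with 6127 bp in ethanol-treated and 8921 bp in untreated control mice, and Gfap, Aqp4 and Aldh1l1 were at 0 in ethanol-treated control mice. Of 7 oligodendrocyte lineage markers with an H3K9ac base in any list, 4 were lower, with 5364 bp in ethanol-treated and 8126 bp in untreated control mice and a median log2 ratio of -0.72. The part of these markers in the members' values was not tested. The Gclm difference was -0.09 when the windows were narrowed to 1 kb, which ended that call.

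In knockdown mice, ethanol left H3K9ac at all 8 tested members within the fold. Nqo1 had 360 bp in ethanol-treated and 253 bp in untreated knockdown mice. Hmox1 had 398 bp in ethanol-treated and 372 bp in untreated knockdown mice, and Gclm had 1649 bp in ethanol-treated and 1491 bp in untreated ones. The members that were low after ethanol in control mice thus had more covered bases after ethanol in knockdown mice, all within the fold, and the difference between these effects was not tested. Among all genes, 10.7% were higher and 4.08% were lower by the same measure. The median log2 ratio was 0.11 for the members and 0.08 for all genes. The log2 ratio of Nqo1 was 0.38, but 2.20 with scores of at least 5 and 1.22 with lists of equal length, both past the fold, so its place within the fold rests on weak peaks.

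Between knockdown and control mice without ethanol, H3K9ac coverage was lower in knockdown mice at each of the 8 tested members, and at 7648 of 13601 tested genes. Some of these differences were slight, with 2142 bp in knockdown and 2153 bp in control mice for Keap1, and 1113 and 1128 bp for Gclc. The sign also depended on the window. Gclm turned to a log2 ratio of 0.06 with windows of 1 kb, and Gclc to 0.09 over the gene with 10 kb on each side. Nqo1 and Hmox1 passed the fold, with 253 bp in knockdown and 526 bp in control mice for Nqo1 (log2 ratio -0.83), and 372 bp in knockdown and 717 bp in control mice for Hmox1 (log2 ratio -0.79). Thus 2 of 8 were lower and 0 were higher, against 9.07% and 4.62% of all genes, and the median log2 ratio was -0.28 for the members and -0.04 for all genes. Of 7 oligodendrocyte lineage markers with an H3K9ac base in any list, 5 were lower, with 4252 bp summed in knockdown and 8126 bp in control mice and a median log2 ratio of -0.96, and Mog and Mag were at 0 in knockdown mice. Of 7 tested astrocyte markers, 0 were lower and 1 was higher, with 9022 bp summed in knockdown and 8921 bp in control mice and with Aqp4 at 0 in both lists. The part of these markers in the members' values was not tested. The Nqo1 call ended with windows of 1 kb, where the log2 ratio was -0.45, and the Hmox1 call ended over the gene with 10 kb on each side, where it was -0.06. That wider window takes in sites at the start of the neighbour Mcm5, chr8:75108720-75109365 and chr8:75109579-75110010. They held 587 and 368 bp of H3K9ac in untreated knockdown and 414 and 256 bp in untreated control mice.

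With ethanol, the same contrast gave 1 higher member and 0 lower of 8, against 29.6% of all genes higher and 1.51% lower. Nqo1 had 360 bp in ethanol-treated knockdown mice and 0 bp in ethanol-treated control mice. It gained an end peak, as did 7.05% of genes with such a peak in either list. The median log2 ratio was 0.07 for the members and 0.36 for all genes. Excitatory neuron markers were higher at 8 of 8 in the same contrast, with 19597 bp in ethanol-treated knockdown and 8183 bp in ethanol-treated control mice, and their part in the members' values was not tested. Gclc and Hmox1 were the only tested members with fewer covered bases in ethanol-treated knockdown mice, at 833 bp in knockdown and 1118 bp in control mice for Gclc and 398 bp in knockdown and 431 bp in control mice for Hmox1. Over the gene with 10 kb on each side, Hmox1 turned to a log2 ratio of 0.78, past the fold, while near the ends it was -0.09. The wider window takes in sites at the start of Mcm5, with 508 and 193 bp in knockdown and 332 and 0 bp in control mice. It also takes in the weak outlying peaks of 133 and 147 bp, listed in ethanol-treated knockdown mice alone. With lists of equal length the log2 ratio of Nqo1 was 1.22, against 2.20 as counted here.

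For H3K27ac, ethanol in control mice moved 0 of 8 tested members past the fold in either direction, against 6.06% of all genes higher and 5.93% lower. The largest difference was at Gclm, with 820 bp in ethanol-treated and 1226 bp in untreated control mice and a log2 ratio of -0.53. In knockdown mice, ethanol went with 1 higher member of 9, Txnrd1, with 388 bp in ethanol-treated and 0 bp in untreated knockdown mice, and with 0 lower, against 10.5% and 2.47% of all genes. Its end peak was gained, as were those of 3.7% of genes with such a peak in either list, but it lies at the 3′ end. Within 2 kb of the annotated starts Txnrd1 had 2276 bp in ethanol-treated and 2050 bp in untreated knockdown mice. The 388 bp were 2 weak peaks, at percentiles 9.2 and 0.574 of their list, and with scores of at least 5 or lists of equal length they were gone and the call ended. Srxn1, Nqo1 and Gss were just inside the fold, with log2 ratios of 0.58, 0.56 and 0.49 (that of Nqo1 was 1.32, past the fold, with scores of at least 5), and the median was 0.37 for the members against 0.11 for all genes. The Gss value includes the weak peak of 426 bp within the Acss2 span. Within 2 kb of its annotated start, Gss had 1868 bp in ethanol-treated and 1604 bp in untreated knockdown mice.

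Without ethanol, 0 of 8 tested members differed in H3K27ac by 1.5-fold between knockdown and control mice, against 10.3% of all genes higher and 3.03% lower. Coverage was greater in knockdown mice at 7 of the 8, and at 9533 of the 14540 tested genes. The median log2 ratio was 0.19 for the members, against 0.09 for all genes. Nqo1 came nearest to the fold, with 1187 bp in untreated knockdown and 814 bp in untreated control mice and a log2 ratio of 0.49, which turned to -0.18 with scores of at least 5.

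The largest median ratio in H3K27ac was that of knockdown against control mice after ethanol. All 9 members with a covered base had more in knockdown mice, as did 12198 of the 14747 tested genes. Of the 9, 4 passed the fold with 0 lower, against 18.7% and 1.67% of all genes. Gclm had 1797 bp in ethanol-treated knockdown and 820 bp in ethanol-treated control mice (log2 ratio 1.04), Nqo1 had 1803 bp in knockdown and 875 bp in control mice (log2 ratio 0.96), and Srxn1 had 2321 bp in knockdown and 1445 bp in control mice (log2 ratio 0.65). Txnrd1 had 388 bp in knockdown and 0 bp in control mice, a call that likewise ended with scores of at least 5 and with lists of equal length. It gained its 3′ end peak, as 5.17% of genes with an end peak in either list gained one. The median log2 ratio was 0.49 for the members and 0.24 for all genes. In the same contrast, 4 of 8 excitatory neuron markers were higher, with 26060 bp in knockdown and 18055 bp in control mice, as were 3 of 7 astrocyte markers, with 15196 bp in knockdown and 10737 bp in control mice, Aqp4 at 0 in both lists and Aldh1l1 at 0 in that of control mice. Other sets ran the other way, with 0 higher and 1 lower of the same 7 oligodendrocyte lineage markers, at 12192 bp in knockdown and 14993 bp in control mice, and 2 of 3 tested microglia markers lower, at 219 bp in knockdown and 731 bp in control mice. The part of these markers in the members' values was not tested. With windows of 1 kb, Gclm and Srxn1 came within the fold, at log2 ratios of 0.41 and 0.42. With windows of 2 kb around the annotated starts, Srxn1 and Txnrd1 did, at 0.44 and 0.39.

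**Figure D4:**
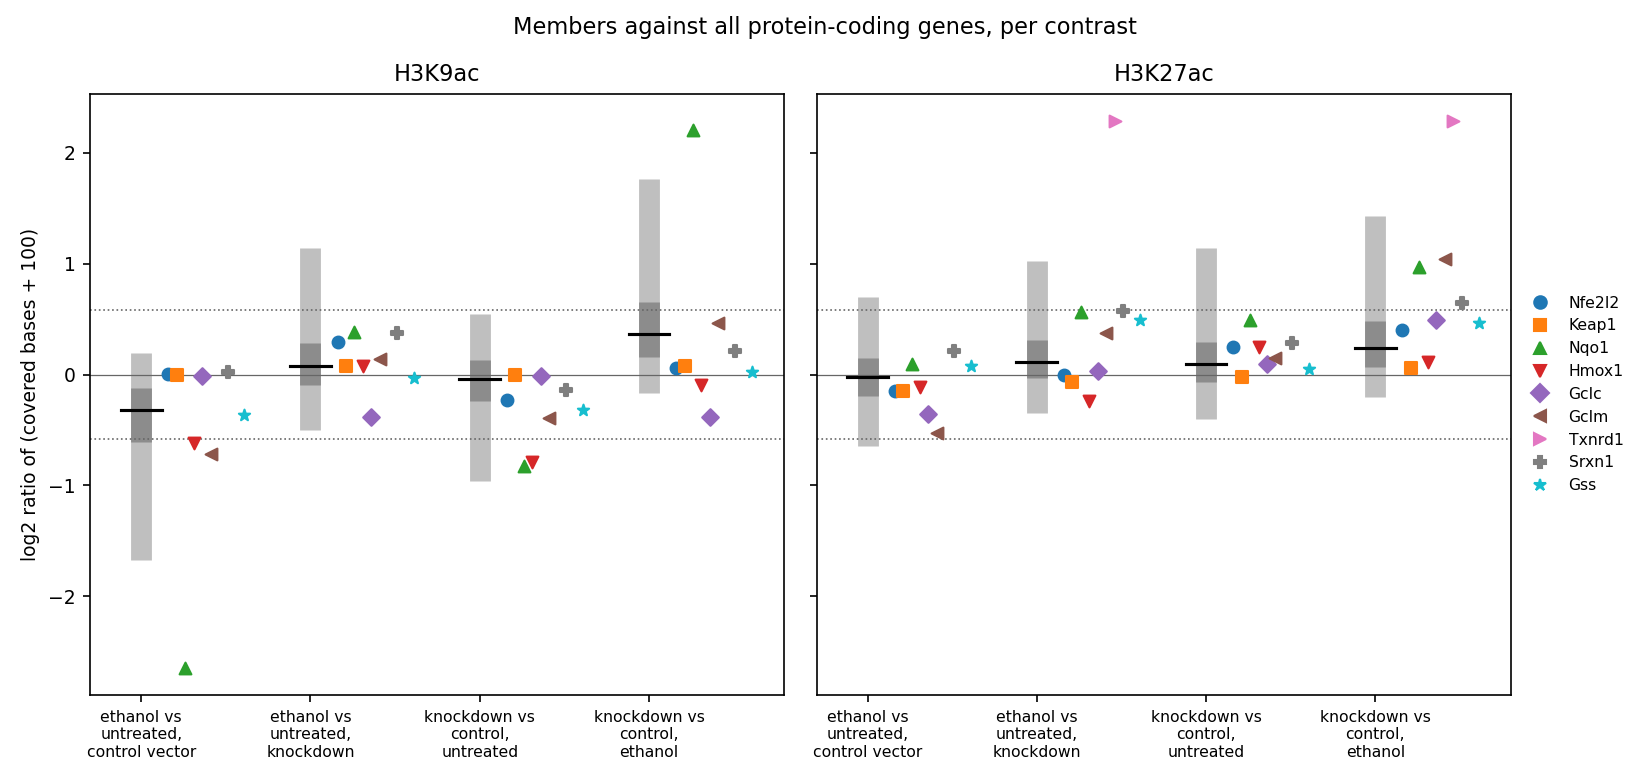
Log2 ratio of covered bases plus 100 within 2 kb of the gene ends for each member (symbols), by mark and contrast. Grey bars span percentiles 5 to 95 (light) and 25 to 75 (dark) of all protein-coding genes with a covered base in either list, the black tick is their median and dotted lines mark 1.5-fold. Slc7a11 is absent, having no covered base, and symbols beyond 2 in either direction are genes at 0 bp in 1 list, whose ratio depends on the 100 bases added.

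The contrasts of a mark reuse the same 4 lists, so their values are not independent. Across them, between 11.1% and 52.2% of the peaks near members in 1 list had no overlapping peak in the other, against 10.6% to 48.4% of all peaks. Between ethanol-treated and untreated control mice, 41.7% of the 36 H3K9ac peaks of untreated control mice near the members had no overlapping peak in ethanol-treated mice, against 38% over the genome. Between ethanol-treated knockdown and ethanol-treated control mice, 52.2% of the 69 H3K27ac peaks of knockdown mice had none in control mice, against 48.4%.

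The wider pathway was read through 81 further genes of NRF2 partners, glutathione and thioredoxin enzymes, NADPH supply, haem handling and detoxification. Between 71 and 76 of them had an H3K9ac peak at a gene end in each list, and between 76 and 80 an H3K27ac peak. In H3K9ac, ethanol in control mice went with 14 lower and 0 higher of 77 tested, and the 18.2% lower compares with 26.6% of all genes. The largest losses were at the aldo-keto reductase gene Akr1b10, with 0 bp in ethanol-treated and 530 bp in untreated control mice, and at the aldehyde oxidase gene Aox1, with 0 bp in ethanol-treated and 425 bp in untreated control mice. In knockdown mice, ethanol went with 6 higher and 1 lower of 77, or 7.79% and 1.3%, against 10.7% and 4.08% of all genes. Aox1 had 662 bp in ethanol-treated and 0 bp in untreated knockdown mice, and the carbonyl reductase gene Cbr3 had 1332 bp in ethanol-treated and 341 bp in untreated knockdown mice. Cbr3 also stood at 341 bp in untreated knockdown and 1366 bp in untreated control mice, so the untreated knockdown list was the lower one in both of these contrasts. Knockdown mice had 19 higher and 0 lower of 77 than control mice after ethanol, and the 24.7% higher compares with 29.6% of all genes. Among the 19 were Akr1b10, at 894 bp in knockdown and 0 bp in control mice, and Gsta4, a glutathione transferase for aldehydes of lipid peroxidation, at 686 bp in knockdown and 0 bp in control mice. Without ethanol they had 2 higher and 7 lower, or 2.6% and 9.09%, against 4.62% and 9.07% of all genes.

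Among the 81 genes, H3K27ac after ethanol in control mice was higher at 6 and lower at 1 of 79 tested, or 7.59% and 1.27%, against 6.06% and 5.93% of all genes. The lower one was Gstm7, a glutathione transferase, with 1115 bp in ethanol-treated and 1834 bp in untreated control mice. In knockdown mice, ethanol went with 7 higher and 0 lower of 80, and the 8.75% higher compares with 10.5% of all genes. Among the 7 was Gstk1, another glutathione transferase, with 864 bp in ethanol-treated and 398 bp in untreated knockdown mice. Knockdown mice had 8 higher and 5 lower of 79 than control mice without ethanol, or 10.1% and 6.33%, against 10.3% and 3.03% of all genes. Among the higher was Nfe2, a relative of NRF2, with 167 bp in untreated knockdown and 0 bp in untreated control mice. Blvra, the biliverdin reductase gene that acts after haem oxygenase, was lower, with 412 bp in untreated knockdown and 933 bp in untreated control mice. After ethanol, 13 were higher and 0 lower of 80, and the 16.2% higher compares with 18.7% of all genes. The largest with coverage in both lists was Osgin1, an oxidative stress response gene, at 1646 bp in knockdown and 728 bp in control mice. Over the 80 genes the median log2 ratio in that contrast was 0.19, against 0.49 for the 9 tested members and 0.24 for all genes.

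Nqo1 had the widest range of the members over the 8 lists. The protein-coding genes nearest to it in covered bases over those lists, by Euclidean distance of log2 bases plus 100, were Optc at 0.663, Fbxl22 at 0.668 and Lipe at 0.790. Each had 0 bp of H3K9ac in ethanol-treated control mice, a value that was itself used in choosing them. Optc, for example, had 326 bp of H3K9ac in ethanol-treated knockdown, 223 bp in untreated knockdown, 0 bp in ethanol-treated control and 347 bp in untreated control mice.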

How the data were processed

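ChIP-seq peaks of H3K9ac and H3K27ac were read from 8 lists, 1 for each mark and condition, each of which the labels of 3 replicates name. The lists were filtered at an FDR of 0.001 after calling against input, per the labels. GRCm38 (mm10), MACS2, bedtools, STAR 2.5.2a and bcl2fastq are named, with no role given, in the submitters' processing notes. The deposited lists hold peak starts and ends and a score, read from its values as the −log10 of a q-value that the authors' caller gave, and it served only for ranks and score filters inside 1 list at a time. How the replicates were pooled and the reads behind each list are not given in the sources used here, and a list made from more reads can hold more and wider peaks.

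Gene positions came from a GRCm38 gene table without strands, and strands, starts and the sequences from the RefSeq promoter table of GRCm38.p6, which held 8 of the 10 members (Hmox1 and Gclc were not matched). Bases inside peaks were counted within 2 kb of both gene ends, end peaks within 1 kb, and peaks over the gene with 10 kb on each side, in Python 3.11.15 with numpy 2.4.6, pandas 2.3.3 and matplotlib 3.10.9. The counting was tested on simulated data. For 4 contrasts per mark, a gene with a covered base in either list was called at a ratio of at least 1.5-fold after 100 bases were added. With 1 list per group, no p-value was computed. Text names all members, up to 2 further pathway genes per contrast and direction, the 3 genes most like the most variable member, and neighbours within 10 kb. The members, gene lists and rules were chosen with earlier results of these data known. The alternatives were windows of 1 kb, the gene with 10 kb on each side, peaks with a score of at least 5, lists of equal length taken by score, and, for shared peaks, at least 50% of a peak covered. Windows of 2 kb around annotated starts were added after the data had been seen. A marker gene is not reported here.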

Additional observations from a re-analysis of the deposited data

Results flagged for a closer look

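At Nqo1, the H3K9ac difference between knockdown and control mice ran in opposite directions with and without ethanol. Without ethanol, the covered bases within 2 kb of the gene ends were 253 bp in knockdown and 526 bp in control mice, a log2 ratio of -0.83. After ethanol, they were 360 bp in knockdown and 0 bp in control mice, a log2 ratio of 2.2 that depends on the 100 bases added and is no bound. Each value is 1 list, and the difference between these effects was not tested. The H3K9ac list of ethanol-treated knockdown mice covered 24.1 Mb and that of ethanol-treated control mice, the shortest, 16.1 Mb. With lists of equal length the log2 ratio after ethanol was 1.22 and that without ethanol -1.38, so the size of both values changed with list length and their directions did not. Both of these ratios set a single small peak against no covered base, so they too depend on the 100 bases added. With windows of 1 kb, and with windows around annotated starts, the ratio without ethanol was -0.45, within the fold.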

How the results depend on the processing

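No paired analysis was possible because each list stands for all 3 replicates of a group, and for the same reason no replicate could be left out. No called log2 ratio of a member changed sign under any alternative, although that of Txnrd1 was 0 with scores of at least 5 and with lists of equal length, and all 16 counts of members with an end peak were within 1.5 times those reported. Counts of called members and of peaks were small, and many moved. The shares over all genes and all peaks were not worked out under the alternatives. The counts below therefore show only how far the reported ones depend on the setting, and not whether the members stand out.

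Over the gene with 10 kb on each side, H3K9ac gave 1 higher member for ethanol in control mice (0 reported), 1 higher and 1 lower for knockdown without ethanol (0 and 2), and 3 higher for knockdown after ethanol (1). H3K27ac gave 1 higher for ethanol in control mice (0), 2 for ethanol in knockdown mice (1) and 4 for knockdown without ethanol (0). The wider window also takes in peaks at the starts of the neighbouring genes S1pr5, Mcm5 and Dnttip2. With windows of 1 kb, H3K9ac gave 1 lower for knockdown without ethanol (2), and H3K27ac gave 1 higher for ethanol in control mice (0), 2 for ethanol in knockdown mice (1), 1 for knockdown without ethanol (0) and 2 for knockdown after ethanol (4). With windows of 2 kb around annotated starts, an alternative chosen after seeing the data, H3K9ac gave 0 lower for knockdown without ethanol (2), and H3K27ac gave 0 higher for ethanol in knockdown mice (1), 1 for knockdown without ethanol (0) and 2 for knockdown after ethanol (4).

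With scores of at least 5, and likewise with lists of equal length, 1 member was higher in H3K9ac for ethanol in knockdown mice (0). With scores of at least 5, the H3K9ac peaks near members were 2 gained (5) and 9 lost (15) for ethanol in control mice and 2 gained (4) for knockdown without ethanol, and the H3K27ac peaks were 9 lost (14) for ethanol in control mice, 12 gained (24) for knockdown without ethanol and 22 gained (36) for knockdown after ethanol. With lists of equal length, H3K9ac had 9 lost (15) for ethanol in control mice, 5 gained (8) for ethanol in knockdown mice, 2 gained (4) for knockdown without ethanol, and 7 gained (14) and 5 lost (3) for knockdown after ethanol. H3K27ac had 13 gained (24) for knockdown without ethanol and 21 gained (36) for knockdown after ethanol. With at least 50% of a peak required to be covered, H3K9ac had 13 gained (8) and 9 lost (5) for ethanol in knockdown mice and 7 lost (3) for knockdown after ethanol, and H3K27ac had 25 lost (14) for ethanol in control mice and 14 lost (9) for ethanol in knockdown mice. The cause of these changes was not tested, beyond the fewer peaks that a score minimum leaves.

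Under the alternatives, 291 log2 ratios of single members moved by less than 1.5-fold and 23 by more. The depth behind each list is unknown, so the absence of a peak from a list does not show the absence of the mark.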
